A study of Mus musculus with 16 samples.

Results

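Ventricular RNA of 4 wild-type 129Sv mice, taken 1 week after a sham operation, was hybridised on 4 two-colour arrays against RNA pooled from whole neonatal mice, and the 2 channels of each spot were compared. The heart RNA was labelled with Cy5 and the reference RNA with Cy3 on every array. The comparison asks which transcripts the ventricle holds at a higher or lower level than the newborn body as a whole. These 4 arrays are part of a series of 16, in 4 groups of 4: wild-type and CHIP-/- mice (lacking the ubiquitin ligase encoded by Stub1), each after sham surgery or after TAB, a banding of the aorta that loads the ventricle with pressure. The other 12 arrays did not enter the main test; they entered 1 alternative fit and a comparison of ratios near the end. All mice of the series had surgery, so no unoperated heart is included, and the labels give no age for them. Per the labels the reference is Whole Mouse Reference RNA from whole bodies of neonatal mice of mixed 129Sv and C57BL/6 strain, and 500 ng of each RNA was labelled.

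A ventricle consists by volume mostly of cardiac muscle cells, which contract throughout life, take their energy mainly from fatty acid oxidation in mitochondria, and divide rarely. Between them lie capillary endothelium, fibroblasts, mural cells and macrophages. A newborn mouse contains a small heart and much skeletal muscle, liver, skin, brain, cartilage, gut, brown fat and blood-forming tissue, most of it growing. A log2 ratio of heart over reference therefore sets 1 organ against the average of a body. It is a ratio for 1 probe, and no gene's level is ranked against another's.

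Organ, developmental stage, strain, surgery and dye all differ between the channels in the same way on each array, and their parts in a ratio cannot be told apart. The reference is a single RNA pool, so the spread over the 4 arrays covers the hearts and the measurement but not the reference's own variation. In bulk RNA, fewer cells of a type and less RNA per cell cannot be told apart. The arrays shared a slide. Nothing in the labels says more of the replicates than that they are biological, 4 per group. Sex-linked transcripts, given further on, set replicate 4 apart from the other hearts, so the hearts were not alike in this.

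Each array held 43379 spots that are not controls, for 41174 probes. A probe was kept if the software marked either its heart signal or its reference signal as well above background on all 4 arrays, which left 24046 probes; the brightest unsaturated probe of each gene or unnamed transcript stood for it, giving 16714 features, of which 14237 had a RefSeq name. A feature is called enriched or depleted where the test for a difference of more than 2-fold (limma's treat, Benjamini-Hochberg adjusted p below 0.05) passed. Of all features 1649 were enriched (9.87%) and 3082 depleted (18.4%). Fewer spots were well above background in the heart channel, 34.4% to 37.7%, against 61.2% to 62.3% in the reference. The lowest processed signal that counted as such was 131 to 176 in heart and 33.8 to 35.3 in the reference. The limits thus differed between the channels, and these shares do not compare brightness. For 4931 features only the reference was measured well, for 18 only the heart, and for 9745 both channels were well above background on all 4 arrays. Within those 9745 the balance was the other way, with 1555 enriched (16%) and 898 depleted (9.21%). These 4 shares, with the medians given next, are the background for the counts of every gene list described. Members and lists were chosen with earlier results of these data known, so a list's count describes it and tests nothing. The features with both channels measured are described first, and the others by bounds or with a remark on the channel that was not measured.

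**Figure D1:**
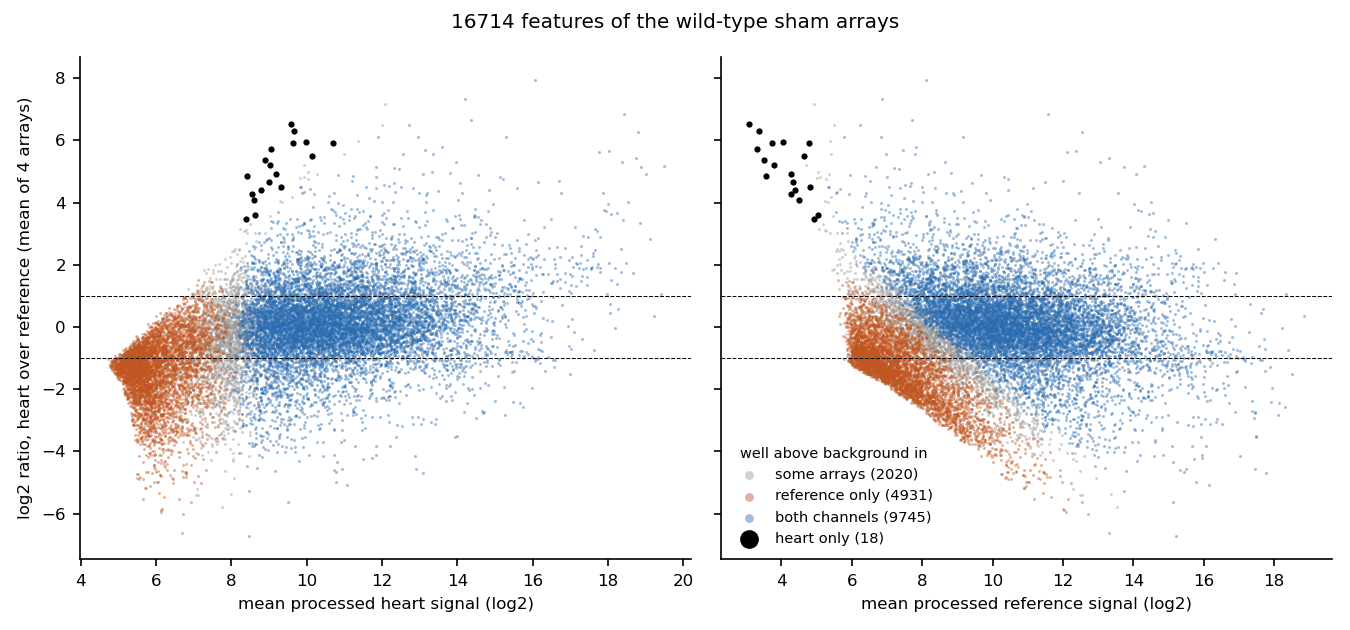
Mean log2 ratio of heart over reference (y axis) against the mean processed signal of the heart (left, log2) and of the reference (right, log2), 1 point a feature, coloured by the channel in which it was well above background; dashed lines mark a 2-fold difference. The 4931 features measured only in the reference fill the dim end of the heart signal and reach low ratios, while the 9745 measured in both channels lie on both sides of 0.

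Ratios repeated closely from heart to heart. Over all features the 6 pairs of arrays correlated across genes at 0.898 to 0.913, and over those measured in both channels at 0.973 to 0.979. Genes are not independent replicates, and all 4 arrays share the reference. The median ratio was -0.33 over all features and 0.14 over those measured in both channels, 198 of which lay above 3 and 124 below -3. Control transcripts spiked into both dyes, as summarised in the file headers, gave observed log ratios with a slope of 0.853 to 0.866 against the expected ones, so a ratio is compressed there, and with an intercept of 0.62 to 0.82 on the log2 scale in favour of the heart dye. Subtracting that intercept moved the median of all features to -1.06, omitting the dye normalization moved it to -1.18, and centring each array moved it to -0.04. Enriched features made up 34.9% of all calls, 10.3% with the intercept subtracted, 7.81% without dye normalization, 50% with median centring and 47.0% with normexp and loess. The position of 0 is thus not fixed by these data to better than about this range; the order of the ratios on an array is not moved by median centring or by the intercept.

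Transcripts for calcium handling and contraction were among those in which the ventricle stood furthest above the newborn body. Pln, encoding phospholamban, the brake on the calcium pump of the sarcoplasmic reticulum, had log2 ratios of 7.91, 7.85, 8.10 and 7.94 in the 4 hearts, the largest mean of all named features measured in both channels (7.95 ± 0.11, SD, n = 4; 247-fold). Tnni3, cardiac troponin I of the thin filament, followed with 6.83, 6.91, 6.94 and 6.74. Lrrc10, a leucine-rich repeat protein of cardiac muscle, had 6.54, 6.72, 6.81 and 6.56. Mybpc3, cardiac myosin-binding protein C of the thick filament, had 6.2, 6.24, 6.33 and 6.26. The spread among the 4 hearts was small beside the size of the ratio for each of these genes. Corin, the protease that cuts the natriuretic peptide precursors, averaged 6.11 ± 0.23 (SD, n = 4). Nppb, the B-type natriuretic peptide that stretched muscle secretes, was more spread, with 5.31 and 5.53 in replicates 1 and 3 and 6.03 and 6.22 in replicates 2 and 4. Nkx2-5, a homeobox factor of the cardiac lineage, averaged 5.69 ± 0.11, Fhl2, a LIM protein of the sarcomere, 5.68 ± 0.08, and Atp2a2, the calcium pump that phospholamban restrains, 5.64 ± 0.06. The other named features among the 15 with the largest ratios were Myl2 (5.43), the regulatory light chain of ventricular myosin, Myh6 (5.32), its alpha heavy chain, Nebl (5.12), the Z-disc protein nebulette, Lrrc2 (5.31), and the RIKEN transcripts 2210408F21Rik (5.57) and 2310002L09Rik (5.56). limma's adjusted p was 1.1e-04 for Nppb and 4.2e-05 or lower for the other 14, Pln, Tnni3 and Corin among them. A second probe of 2310002L09Rik lay at -3.22 and was called depleted, so that entry rests on which probe is read.

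At the other end stood genes of bone, liver, airway, gut and brown fat. Spp1, encoding osteopontin, a matrix protein abundant in bone, had -7.12, -6.59, -7.14 and -6.08, a 106-fold lower signal in heart on average. Apoh, a plasma glycoprotein made by liver, had -5.86, -5.69, -5.40 and -5.54. Fgg, the gamma chain of fibrinogen, averaged -5.08 ± 0.10 (SD, n = 4), Ambp, the precursor of the plasma protein alpha-1-microglobulin, -5.0 ± 0.15, and Afp, the fetal plasma protein alpha-fetoprotein, -4.70 ± 0.32. Fabp2, the fatty acid binding protein of the intestine, lay at -4.67, Scgb3a2, a secretoglobin of the airways, at -4.62, and Ucp1, the uncoupling protein by which brown fat makes heat, at -4.56. Myl1, the light chain of fast skeletal myosin, had -4.86, -4.44, -4.50 and -4.42, so the most depleted list included the skeletal counterpart of a protein that is abundant in the ventricle. The remaining named features of the lowest 15 were Stfa3 (-5.27) and Cstdc6 (-4.23), both of the cystatin superfamily of protease inhibitors, the membrane protein gene Itm2a (-4.58), the urate oxidase gene Uox (-4.53), the gluconeogenic enzyme gene Fbp1 (-4.33) and Plagl1 (-4.31), an imprinted zinc finger factor. Adjusted p-values from limma were 1.8e-04 for Scgb3a2 and 1.0e-04 or lower for the others, Spp1 included. On the other 12 arrays Spp1 ranged from -7.03 to -2.26, whereas Apoh stayed between -5.89 and -5.45.

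**Figure D2:**
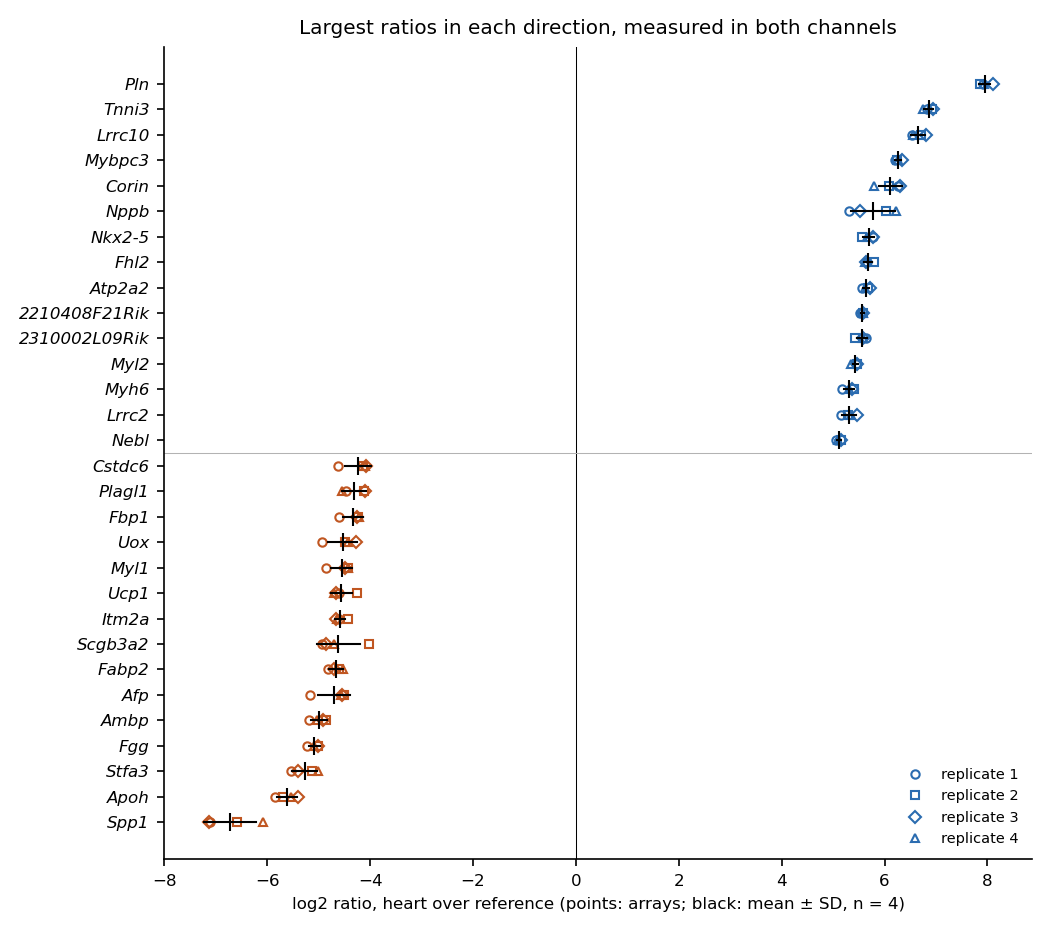
Log2 ratio of heart over reference (x axis) on each of the 4 arrays (symbols) for the 15 named features with the largest and the 15 with the smallest mean among those measured and unsaturated in both channels; black marks give the mean ± SD (n = 4). The 4 hearts of Pln lie between 7.85 and 8.10 and those of Spp1 between -7.14 and -6.08. The upper and the lower set were chosen by their mean ratio, so their separation is no result.

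Genes of the cardiac sarcomere, the contractile unit, were mostly enriched: 32 of 36 members measured, all in both channels, passed and none was depleted. Of all features measured in both channels 16% were enriched. Their median was 2.29, against 0.14 for all such features. Thin filament genes included Tnnt2, cardiac troponin T (4.94 ± 0.10), Tnnc1, troponin C of heart and slow muscle (4.71 ± 0.04), and Actc1, cardiac alpha-actin, with 2.96, 2.86, 2.94 and 2.81. Of the Z-disc, Tcap (telethonin) had a mean of 4.03 and Ankrd1, a stress-responsive ankyrin repeat protein, 4.68 ± 0.45. Ttn, the giant spring protein titin, was enriched by 1.47 ± 0.23, and Actn2, the actin cross-linker of the Z-disc, by 1.24 ± 0.11. Of the 4 not called, Des was at 1.00, Synpo2l at 0.64, Flnc at 0.47 and Myh7, the beta heavy chain of fetal ventricle and slow skeletal muscle, at -0.52. Myh7 had -0.85, -1.17, -0.74 and 0.69, and replicate 4 was the only heart above 0. The calls of Ttn (1.39 to 1.47) and Actn2 (1.21 to 1.25) were lost without replicate 2, 3 or 4, and both passed without replicate 1. With the spike-in intercept subtracted 23 of the 36 were enriched, and without dye normalization 21, and neither count includes Ttn or Actn2.

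Promoters of this list were read for short motifs that muscle and heart factors are known to bind, since its members were enriched together. RefSeq promoter windows (GRCm38.p6) were found for 30 of its 37 genes on the array, and the 250 bases before the annotated start were searched on both strands. A CArG box, the element of serum response factor, was present in 5 of 30 (16.7%), against 1.41% of 27025 promoters of the same length. A MEF2 site, the element of the myocyte enhancer factors, was present in another 5 (16.7%), against 0.522% of all. The site of GATA factors, searched as AGATAA, was found in 26.7% against 10.2%, and CATTCC, the MCAT element, in 23.3% against 12.6%. Among the 52 respiratory chain genes with a window no CArG box or MEF2 site was found. Over features measured in both channels a CArG box was found in 1.56% of the enriched and 1.91% of the depleted. The GATA site was found in 5.87% and 7%, and the MCAT element in 10.4% and 12.4%. A MEF2 site had a higher share among the enriched, in 16 of 1091 windows (1.47%) against 3 of 629 (0.477%). Its share over all features tested was 0.451%. These shares were not tested against each other. In the skeletal muscle list, whose genes were mostly depleted, a CArG box was found in 8.7%, the MCAT element in 30.4% and a MEF2 site in none of 23 windows. Matches are a description of letters, and other features of these promoters were not compared. The 60 bases around each CArG box and MEF2 site are shown because both motifs were found at a higher share in this list than over all promoters; capitals mark the motif, and the sequences run 5′ to 3′ on the gene's strand.
Myom1 (chr17:71019433-71019492, plus strand, CArG box): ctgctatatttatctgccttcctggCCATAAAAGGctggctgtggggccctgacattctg
Fhl2 (chr1:43196823-43196882, minus strand, CArG box): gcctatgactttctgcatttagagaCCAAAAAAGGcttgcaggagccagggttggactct
Myl3 (chr9:110763568-110763627, plus strand, CArG box): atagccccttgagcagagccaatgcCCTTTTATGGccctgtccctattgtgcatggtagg
Actc1 (chr2:114052888-114052947, minus strand, CArG box): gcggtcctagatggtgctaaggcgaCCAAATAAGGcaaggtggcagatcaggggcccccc
Ldb3 (chr14:34588682-34588741, minus strand, CArG box): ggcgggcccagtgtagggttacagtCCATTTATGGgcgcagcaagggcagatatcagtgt
Ttn (chr2:76982679-76982738, minus strand, MEF2 site): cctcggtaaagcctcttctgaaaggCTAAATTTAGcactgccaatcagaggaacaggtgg
Synpo2l (chr14:20668429-20668488, minus strand, MEF2 site): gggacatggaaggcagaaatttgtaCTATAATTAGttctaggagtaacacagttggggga
Mybpc3 (chr2:91118029-91118088, plus strand, MEF2 site): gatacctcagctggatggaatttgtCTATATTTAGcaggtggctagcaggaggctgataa
Xirp2 (chr2:67445903-67445962, plus strand, MEF2 site): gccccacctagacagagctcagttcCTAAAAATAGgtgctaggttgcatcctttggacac
Myoz2 (chr3:123034988-123035047, minus strand, MEF2 site): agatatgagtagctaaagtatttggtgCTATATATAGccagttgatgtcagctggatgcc
All of these genes except Synpo2l were called enriched, from 1.47 for Ttn to 6.26 for Mybpc3, and Myl3, the essential light chain of ventricular myosin, had a mean ratio of 3.36.

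Calcium handling genes, which couple the action potential to contraction, were enriched in 16 and depleted in 4 of 26 members measured, with a median of 1.67. Beside Pln and Atp2a2, the sodium-calcium exchanger gene Slc8a1 had 4.51 ± 0.15, the pore gene of the cardiac L-type calcium channel, Cacna1c, 4.16 ± 0.11, its beta subunit gene Cacnb2 3.35 ± 0.41, and Camk2d, the cardiac calmodulin-dependent kinase, 2.77 ± 0.08. Genes of the junction and store proteins were enriched too: Hrc (2.99), Jph2 (2.47), Trdn (1.77) and Srl (1.30). Casq2, cardiac calsequestrin, had a mean of 0.94 and did not pass. The depleted members were Ryr1, the calcium release channel of skeletal muscle, with -3.21, -3.03, -3.14 and -3.09, Sln (sarcolipin; -2.33), Fkbp1b, which encodes a partner of the cardiac release channel (-2.84, with a heart signal well above background on 1 array), and Sypl2, the last measured in the reference only (at least 3.39-fold lower in heart). Without replicate 2, 3 or 4 neither Sln (-2.31 to -2.16) nor Fkbp1b (-2.79 to -2.64) passed, and Srl did not pass without replicate 1 (1.27) or 3 (1.28).

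The ion channels, junctions and factors that set the rhythm and identity of heart muscle were often enriched. Of 23 channel and gap junction genes measured, 16 were enriched and none depleted (median 2.42; 11 without dye normalization): the potassium channel genes Kcnj3 (4.43), Kcna5 (3.52), Kcnq1 (3.15), Kcnd2 (3.14) and Kcnj11 (2.72), the chloride-bicarbonate exchanger gene Slc4a3 (3.37), Popdc2 (4.41), and Gja1, the main gap junction connexin of ventricular muscle (2.40 ± 0.11). Gja5, the connexin of atria and conduction tissue, was at 0.25 ± 0.38. In the intercalated disc, which joins the cells end to end, 10 of 19 were enriched (median 1.62), 6 with the intercept subtracted and 4 without dye normalization (median 0.45), led by the desmosomal genes Pkp2 (4.88), Dsp (3.44) and Dsg2 (3.24) and by Cdh2, N-cadherin (3.50). Vcl, the adhesion protein vinculin, was at 0.35 and Lmna, of the nuclear lamina, at -0.83. Of 24 cardiac transcription factor genes 13 were enriched (median 1.74), and without dye normalization 8 were enriched and 4 depleted. Among the enriched were Tbx20 (5.56), Myocd (4.33), Hand2 (4.19), Gata6 (2.64), Tbx5 (2.52) and Irx4 (1.75), a factor of ventricular muscle. Isl1, a factor of early heart and nerve progenitors, was measured in the reference only and was the only member depleted (at least 2.04-fold lower in heart). Of genes for natriuretic peptides and cardiac receptors 11 of 23 were enriched and 2 depleted (median 0.92), against 7 and 5 without dye normalization, with Nppa at 4.12, 3.86, 3.94 and 5.34 in the 4 hearts and Crhr2, the urocortin receptor, at 4.54. The beta-adrenergic receptor gene Adrb1 had 2.48 ± 0.16.

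Mitochondrial energy genes formed the most even of the enriched groups. Of 63 respiratory chain and ATP synthase genes, all measured in both channels, 59 were enriched and none depleted, with a median of 1.89 and a range from 0.26 to 2.89. Cox7c of complex IV had 2.89 ± 0.16, Uqcrfs1, the iron-sulphur protein of complex III, 2.58 ± 0.09, and Ndufa4 2.53 ± 0.05. Atp5g1, of the ATP synthase ring, had 2.2 ± 0.05, and Atp5a1, the alpha subunit of the ATP synthase, 1.36 ± 0.06. The 4 not called were Ndufa7 (1.16), Atp5l (0.97), Ndufv2 (0.68) and Ndufc2 (0.26). The count moved with the scaling, while the list's median stayed above 0 and none was depleted. With the spike-in intercept subtracted 24 of 63 were enriched, at a median of 1.15, and without dye normalization 28, at 1.44. In the tricarboxylic acid cycle 17 of 23 were enriched (median 1.74), led by Mdh1 (2.94), Ogdh (2.90) and Idh2 (2.85), and 7 passed with the intercept subtracted. Cs, citrate synthase, was at 1.15 ± 0.09.

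Genes that use fatty acids, ketones, branched-chain amino acids and glucose were taken as separate lists, and the lists were not tested against each other. Of 29 fatty acid oxidation genes 16 were enriched and 3 depleted (median 1.46), and 16 became 7 with the intercept subtracted and 5 without dye normalization. Decr1, needed for unsaturated fatty acids, had 4.22, Acadl 2.57, Hadha 2.41, Cpt1b, the muscle form of the carnitine gate to the mitochondrion, 2.19, and Acadm 2.02. Cpt1a, the liver form, Acot1 and Acsl3 were depleted, at -1.56, -2.01 and -2.13, the last with heart signals well above background on 2 arrays. Fabp3, the fatty acid binding protein of heart, had 5.16, 5.15, 5.23 and 5.08 with 1 array saturated, Lpl, which frees fatty acids from lipoproteins at the capillary wall, 3.63 ± 0.04, and the fatty acid transporter gene Cd36 2.49 ± 0.06. Plin2 and Angptl4, an inhibitor of Lpl, were depleted, at -2.01 and -2.81. The lipid uptake and storage list as a whole had 8 of 22 enriched and 3 depleted and a median of 0.69, which turned to -0.05 with the intercept subtracted. Of 22 genes for ketone and branched-chain amino acid use 13 were enriched and 1 depleted (median 1.41), 5 enriched with the intercept subtracted and 2 without dye normalization. The enriched included Bcat2 (3.35) and Oxct1, which activates ketones for burning (3.09 ± 0.04). Of 28 glycolysis genes 9 were enriched and 3 depleted, and without dye normalization 3 and 7; the list's median of 0.44 turned to -0.10 without dye normalization and to -0.30 with the intercept subtracted.

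Regulators of these programmes and muscle protein turnover genes were also high. Of 18 metabolic nuclear receptor and coactivator genes 10 were enriched and none depleted (median 1.61), against 7 and 1 with the intercept subtracted and 4 and 2 without dye normalization, with Perm1 at 4.26, Esrrb at 4.92, Klf15 at 2.81, Esrrg at 2.56 and Ppargc1a, the PGC-1alpha coactivator, at 1.67, while Ppara was at 0.75 and did not pass. Of 21 muscle ubiquitin ligase and ASB genes 12 were enriched and none depleted (median 2.38), against 11 and 2 with the intercept subtracted and 11 and 3 without dye normalization. The 18 measured in both channels had 9 enriched and a median of 1.12. The list was led by Asb15 (7.18 ± 0.51) and Asb14 (6.50 ± 0.36), whose reference signal was well above background on some arrays only. Rnf207 had 4.87, Asb11 4.92, and the atrophy ligase genes Trim63 and Fbxo32 had 3.28 and 2.63. Among 20 small heat shock protein and chaperone genes 10 were enriched (median 1.01), 6 with the intercept subtracted and 4 without dye normalization, with Hspb6 at 3.60, Hspb7 at 3.53, Bag3 at 2.90 and Cryab at 2.63. Stub1, whose product is a partner of these chaperones, was at 0.42 ± 0.06, and the constitutive chaperone gene Hspa8 at 0.83. Mb, myoglobin, which stores oxygen, had 4.71 in replicate 1 and 5.30 to 5.37 in the others, with 1 array saturated, and the mitochondrial creatine kinase gene Ckmt2 had 4.32 ± 0.08. Pigt and Lars2 were saturated in heart on all 4 arrays, where a ratio is no measure of their level.

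**Figure D3:**
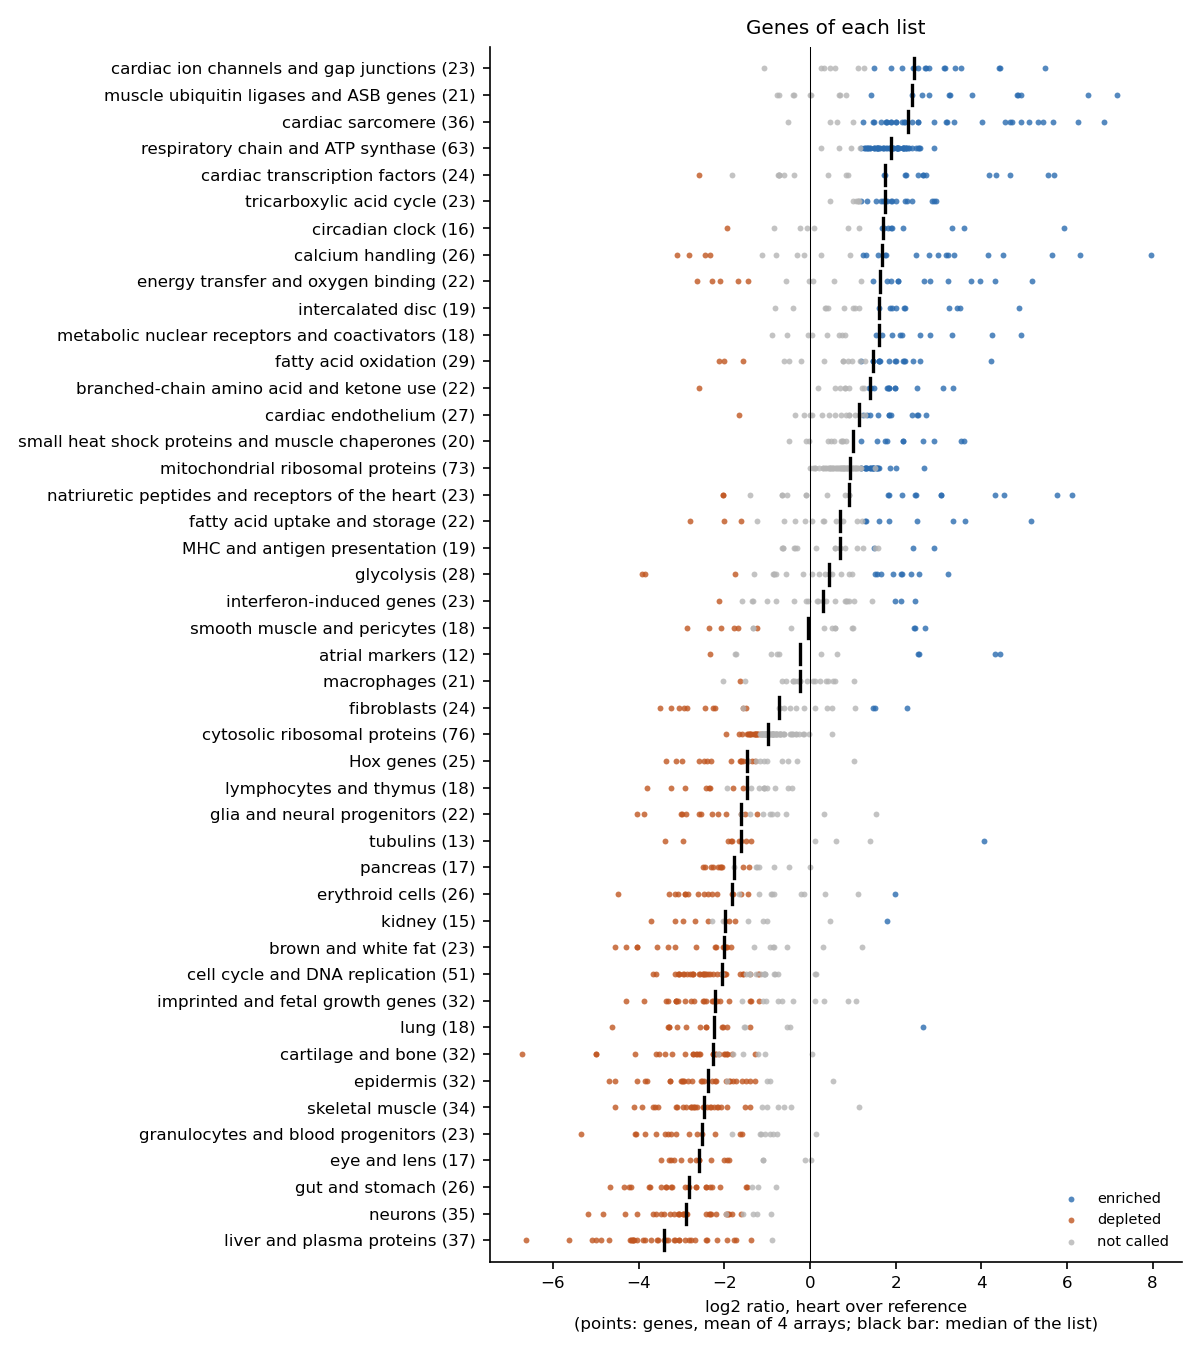
Mean log2 ratio (x axis, 4 arrays) of each gene of the lists with at least 10 members measured, coloured by call; black bars mark list medians and numbers in brackets the members measured. Medians run from -3.40 for liver and plasma proteins to 2.42 for cardiac ion channels and gap junctions, and most lists of other organs hold no enriched gene.

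Within protein families the heart or striated muscle form and its relative often lay on opposite sides of 0. In the sarcomere pairs the relative is mostly itself a form of skeletal muscle. Of the sarcomere, Tnni3 (6.86) stood against Tnni1, the slow skeletal and fetal troponin I (-2.96), Tnnt2 (4.94) against Tnnt3 (-3.55), Tnnc1 (4.71) against Tnnc2 (-1.52), Myh6 (5.32) against the embryonic heavy chain gene Myh3 (-2.73), Myl2 (5.43) against Mylpf (-3.12) and Myl3 (3.36) against Myl1 (-4.55). Actc1 (2.89) stood against Acta1, skeletal alpha-actin (-2.78), Myom2 (1.78) against Myom3 (-2.57), and Mybpc3 (6.26) against Mybpc2 (-1.01, not called). Of mitochondria, Cox6a2, the muscle form of a complex IV subunit, had 3.94, 4.00, 4.01 and 3.93, and Cox6a1, the general form, -1.93, -1.88, -2.03 and -1.93. The 4 hearts of the muscle form lay far above those of the general form. Cox7a1 (3.76) was enriched and Cox7a2 (1.17) was not called, and Cox8b (3.23) stood beside Cox8a (-0.78, not called). Slc25a4, the muscle ADP/ATP carrier, had 2.05 and Slc25a5 -0.57. Cpt1b (2.19) stood against Cpt1a (-1.56) and Slc2a4, the insulin-regulated glucose transporter (3.22), against Slc2a1 (-0.55, not called). For Fabp3 (5.15, saturated on 1 array) and Acacb (1.47) the relatives Fabp5 and Acaca were measured in the reference only: Fabp5, called depleted, has no bound above 1-fold, and Acaca was not called, except without replicate 1 (-1.54).

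The translation machinery held such pairs too. Rpl3l, a muscle form of a ribosomal protein, had 3.71, 3.49, 3.59 and 3.45, and Rpl3, the general form, -1.96, -1.96, -2.04 and -1.88, the lowest of the 76 cytosolic ribosomal protein genes. Eef1a2, the elongation factor of muscle and nerve, averaged 4.46 ± 0.19 and Eef1a1 -1.98 ± 0.11. Other pairs were less clear. Jph2 (2.47) stood beside Jph1, whose heart signal was not well above background on any array and whose ratios ran from -2.23 to -0.10. Of the calcium store, Casq2 (0.94) beside Casq1 (-1.12), Ryr2, with a reference signal not well above background, beside Ryr1 (-3.12), and Atp2a2 (5.64) beside Atp2a1 (1.15), whose second probe was depleted, at -1.87. Of glycolysis, both members were enriched for Hk2 (2.35) and Hk1 (1.67) and for Pfkm (1.94) and Pfkl (1.55), and Pygm (2.13) stood beside Pygl (-0.85), Pgam2 (0.99) beside Pgam1 (-0.83) and Eno3 (0.72) beside Eno1 (-0.79). Ckm, the creatine kinase of all striated muscle, was at -0.23, 0.03, 0.02 and 0.09, a ratio near 0 between heart and a body with much skeletal muscle, while Ckb was depleted at -1.45. The order was turned for Pdk4 (-0.21 ± 0.55), the pyruvate dehydrogenase kinase best known from fasted muscle, and Pdk1 (2.45 ± 0.07).

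**Figure D4:**
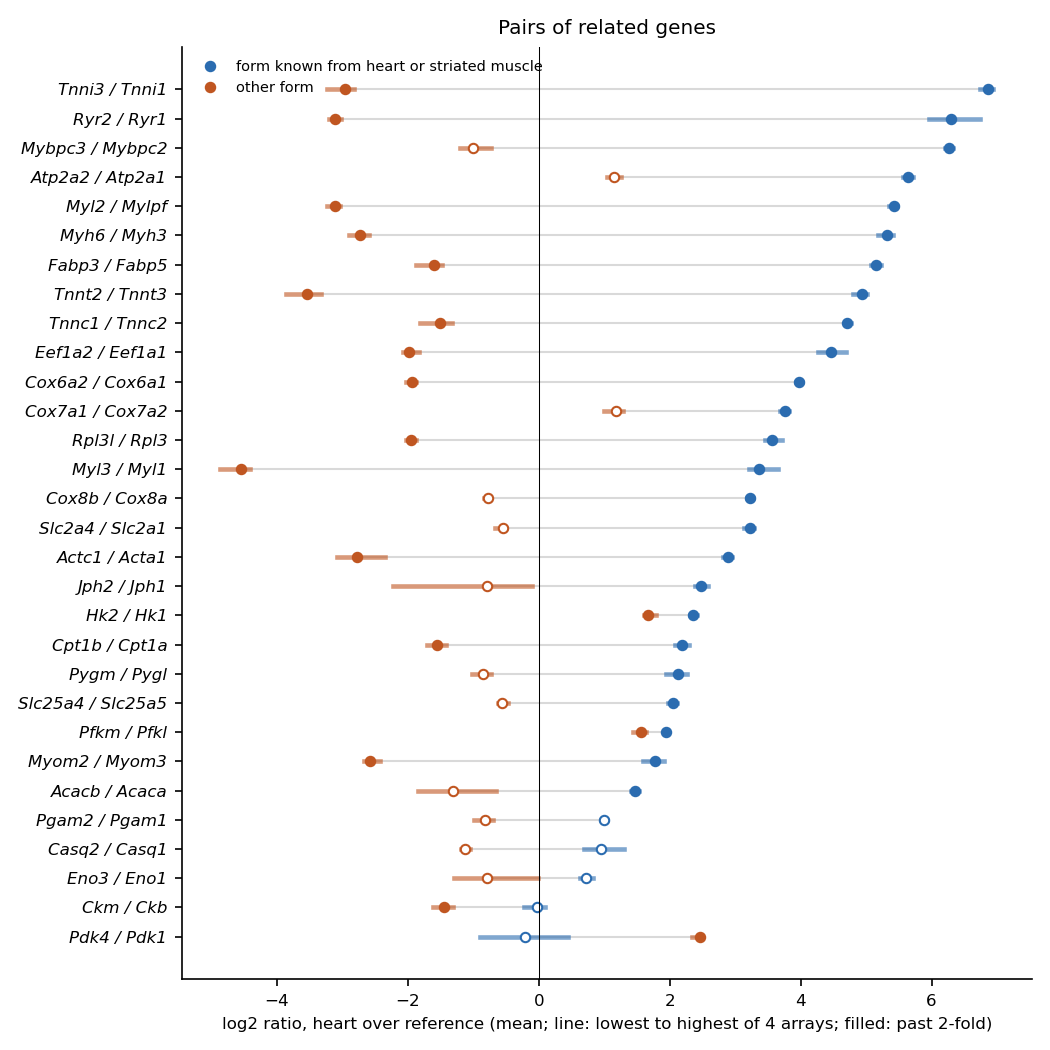
Mean log2 ratio (x axis) of the members of 30 pairs of related genes, blue for the form known from heart or striated muscle and orange for its relative. In the sarcomere and calcium store pairs the relative is mostly a skeletal muscle form. Lines run from the lowest to the highest of 4 arrays and filled points passed the test. Tnni3 and Tnni1 lie furthest to the right and at -2.96, and the order of Pdk4 and Pdk1 is turned; Fabp5, Acaca and Jph1 were not well above background in heart, nor Ryr2 in the reference.

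A few genes were seen in heart and not well above background in the newborn pool. There were 18 such features, of which 11 had a RefSeq name; for these the ratio is a bound, set by the dimmest reference signal that counts as well above background. Kcnj14, an inward rectifier potassium channel gene, was at least 48.3-fold higher in heart, Kcnip2, which shapes the transient outward current, at least 32.4-fold, and Ryr2, the calcium release channel of heart, at least 23.3-fold. Rbm20, the splicing factor of titin, was at least 16.7-fold higher, Tnni3k, a cardiac kinase, at least 15.2-fold, and Ciart, a repressor of the circadian clock, at least 29.2-fold. Their log2 ratios as measured were 5.91, 5.50, 6.30, 4.91, 5.72 and 5.93 for Kcnj14, Kcnip2, Ryr2, Rbm20, Tnni3k and Ciart. A feature could pass the filter in this class only by a high heart signal, so that all 18 were called enriched is no support for a difference. The other 5 were Mov10l1 (at least 22.2-fold), Opn4, the light-sensing pigment melanopsin (15), Coro6, of the actin-binding coronins (14.9), the odorant receptor gene Olfr32 (11.4) and the orphan receptor gene Gpr22 (9.81). Other transcripts that the probes of Olfr32, Opn4 and Mov10l1 could read were not examined.

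The reverse case was common: 4931 features were well above background on all 4 arrays in the reference only. For 926 of them the bound was 2-fold or more, and for 2760 the bound was under 1-fold, so no difference can be stated. Of these features 1891 were called depleted, and 543 of those calls have no bound above 1-fold and rest on heart signals that the scanner software did not take as well above background. A feature could enter this class only by a high reference signal, so the count of calls is no support for a difference. Of the 15 brightest with a RefSeq name, several are best known from liver. Cps1, which starts the urea cycle, was at least 63.6-fold lower in heart, with ratios as measured of -6.42, -7.38, -5.77 and -6.94. Cfi, complement factor I, was at least 36.6-fold lower, Slc27a2 28.6-fold, Cyp3a41a 27.6-fold, Aadac 25.9-fold, Cyp2a5 23.8-fold, Rgn 23.1-fold, Pon1 21.4-fold and Slco1b2 20.6-fold. Atp1b4, of skeletal muscle, was at least 42.4-fold lower, the aldo-keto reductase gene Akr1b7 23.3-fold, the neurofilament gene Nefl 20.1-fold, Kcne1l 18.2-fold, Dcpp2 17.6-fold and Zic1, a factor of nerve and brown fat, 16.2-fold. In 3 features measured in the reference only, among them Parp12, the call was enriched from heart signals below that level. The call of Parp12 was lost without replicate 3 (1.35).

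Liver and plasma protein genes had the lowest median of the lists, -3.40, with 36 of 37 measured depleted and none enriched, where 18.4% of all features were depleted. All 29 of those measured in both channels were among them. Alb, albumin, had -2.81, -2.72, -2.83 and -2.92, Apoa1, the main protein of high-density lipoprotein, -3.32 ± 0.08, and Trf, transferrin, -4.13 ± 0.11. Itih4 (-0.88) did not pass. The 4 hearts lay close together for Alb and Apoa1. Of 34 skeletal muscle genes 28 were depleted (median -2.48), 24 of them among the 29 measured in both channels. Neb, the ruler of the skeletal thin filament, had a mean of -4.12, Actn3, of fast fibres, -3.66 ± 0.23, Myh2 -2.89, and Myog, which drives muscle cell differentiation, -2.49 ± 0.07. Myf6 was at least 6.95-fold lower. Atp2a1 (1.15), Myh4 (-0.44) and Myh8 (-0.75) did not pass.

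Other organ lists were depleted to different degrees, and many of their members were measured in the reference only. Their counts are much lower with normexp and loess, which are given at the end of the paragraph. Of 35 neuronal genes measured 30 were depleted (median -2.90), 12 of them among 13 measured in both channels: Crmp1 had -3.27 ± 0.15, Tuba1a -2.96 ± 0.11 and Celf4 -2.90 ± 0.09, and Dcx, of migrating young neurons, was at least 12.1-fold lower. Of 32 epidermis genes 28 were depleted (median -2.39), with Krt1 at -4.04, Asprv1 at -3.85 and Lor, loricrin of the skin barrier, at -2.93. Of 32 cartilage and bone genes 26 were depleted (median -2.27), with Col11a1 at -3.52 and Col2a1, the collagen of cartilage, at -2.91 ± 0.29, and Mmp13 at least 17.7-fold lower. In the gut list 23 of 26 were depleted (median -2.83), with Lct, the milk-sugar enzyme lactase, at -3.76 ± 0.22, and in the fat list 16 of 23 (median -2.02), with Cidec at -4.04 and Adipoq, adiponectin, at -3.57. Of 17 eye and lens genes 13 were depleted (median -2.59), and of 18 lung genes 13 (median -2.24), with the surfactant gene Sftpc at -2.89 ± 0.08. Hopx, which the lung list shares with heart, was enriched (2.63). Of 23 granulocyte genes 15 were depleted (median -2.53), with S100a9 at -3.84 and S100a8 at least 17.5-fold lower. Erythroid genes were depleted in 16 of 26 (median -1.82), with Hba-a1, alpha-globin, at -2.79, -2.15, -2.17 and -2.40. Sptb, a spectrin also known from striated muscle, was enriched (1.98 ± 0.15). Of the 11 erythroid genes measured in both channels 4 were depleted (median -0.895). Among members measured in both channels, 17 of 19 epidermis, 8 of 10 cartilage and bone, 10 of 11 gut and 10 of 15 fat genes were depleted. The same held for 8 of 9 eye and lens, 4 of 6 lung and 3 of 5 granulocyte genes. Of 17 pancreas genes 10, of 15 kidney genes 8, of 22 glial genes 13 and of 18 lymphocyte and thymus genes 8 were depleted, with medians of -1.77, -1.99, -1.61 and -1.47 and with 1, 2, 8 and 3 members respectively measured in both channels. With normexp and loess 20 neuronal, 20 epidermis, 9 cartilage and bone, 16 gut, 12 fat, 9 eye and lens, 5 lung, 10 granulocyte and 5 erythroid genes were depleted, and 1 pancreas, 2 kidney, 7 glial and 1 lymphocyte and thymus gene. The medians of cartilage and bone, lung, erythroid, pancreas, kidney, glial and lymphocyte genes then lay between -0.88 and -0.29. Liver and plasma protein genes then had 34 depleted and skeletal muscle genes 25.

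Genes of growth and division were low in the ventricle. Of 51 cell cycle and replication genes measured 36 were depleted and none enriched, 18 of them among the 26 measured in both channels. Mki67, the proliferation marker, had -3.07 ± 0.39, Birc5 -3.15 ± 0.46, Cdc20 -2.43 ± 0.21 and Mcm6 -2.34 ± 0.17, whereas the replication clamp gene Pcna was closer to the body's level at -1.19 ± 0.05, a call lost when any 1 of the 4 replicates was left out (-1.21 to -1.17), and Ccnd2 was at 0.11. Nusap1 was at least 7.09-fold and Cdk1 at least 5.41-fold lower. With normexp and loess 16 of the 51 were depleted, at a median of -0.91 against -2.06, and without replicates 1 and 3 together 17. Imprinted and fetal growth genes were depleted in 22 of 32, none enriched, at a median of -2.21. Of the 21 measured in both channels 13 were depleted. With normexp and loess 14 of the 32 were depleted, at a median of -1.07. Igf2, the fetal growth factor, had -2.85, -2.62, -2.69 and -2.69, H19 -2.11 ± 0.12, Dlk1 -3.13 ± 0.14, Cdkn1c -3.12 ± 0.10, Mest -3.33 ± 0.21 and Gpc3 -3.87 ± 0.26. Impact (1.07), Snrpn (0.90) and Igf2r (0.33) lay on the other side of 0 without passing. Of 25 Hox genes measured 16 were depleted, but 20 of the 25 were measured in the reference only, and with normexp and loess none passed, at a median of -0.22 against -1.47. Hoxb7 and Hoxc9 were at least 3.80-fold and 3.45-fold lower in heart. Tubulin genes fell into both classes, with 9 of 13 depleted, Tubb5 at -1.82 ± 0.03, and Tuba8, known from muscle, enriched at 4.05 ± 0.25.

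Markers of the other cells of the ventricle gave mixed ratios. Endothelial genes were enriched in 11 of 27 and depleted in 1 (median 1.15), with Cdh5, the cadherin of endothelial junctions, at 2.71 ± 0.10, Ly6c1 at 2.38, Flt1 at 1.85, Gpihbp1, which carries Lpl on capillaries, at 1.84 and Tek at 1.58. Cldn5 was depleted (-1.66 ± 0.30; -1.62 and not called without replicate 1) and Pecam1 was at 0.72. The count was 4 with the intercept subtracted and 3 without dye normalization, with the median still above 0 at 0.41 and 0.14. Fibroblast genes were depleted in 10 of 24 and enriched in 3 (median -0.71). The depleted ones were led by genes of collagen and newly made matrix: Col1a1 had -3.92, -3.50, -3.56 and -3.07, Postn -3.25 ± 0.99, Col3a1 -2.95 ± 0.50 and Fn1, fibronectin, -2.88 ± 0.21. Pi16 (2.26 ± 0.07), Fbln1 (1.51) and Gsn (1.46; 1.42 and not called without replicate 3) were enriched, and Pdgfra, a marker of the cells themselves, was at -0.47 ± 0.12. Without replicates 1 and 3, 5 of the 24 were depleted and 1 was enriched.

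Of 18 smooth muscle and pericyte genes 6 were depleted, 3 enriched and 9 not called. The contractile genes Cnn1 (-2.87), Mylk (-2.36), Tagln (-2.07) and Myh11 (-1.67; -1.66 and not called without replicate 3) were depleted, as were Cspg4, a pericyte marker (-1.23; not called when any 1 replicate was left out, at -1.25 to -1.18), and Vtn (-1.77). The pericyte genes Rgs5 (2.44 ± 0.03), Higd1b (2.42) and Abcc9 (2.68) were enriched, while Pdgfrb (0.59), Kcnj8 (0.58) and Acta2, smooth muscle actin (-1.33), did not pass; the median of -0.05 turned to 0.02 with normexp and loess and to 0.23 with median centring. Of 21 macrophage genes none was enriched and 1, Cx3cr1, was depleted; C1qa was at 0.37, Mrc1 at 0.08, Csf1r at -0.25 and Lyz2 at -0.35, and the median of -0.24 turned to 0.04 with median centring. Of 19 antigen presentation genes 3 were enriched: Cd74 (2.90 ± 0.41), H2-Eb1 (2.41 ± 0.75) and H2-M3 (1.5). All 3 were among the 15 measured in both channels, a share not far above the 16% of all such features. The median of 0.69 turned to -0.16 without dye normalization and to -0.05 with the intercept subtracted. The call of H2-Eb1 was lost without replicate 1 (2.25) or 4 (2.15) and that of H2-M3 without replicate 1, 2 or 3 (1.35 to 1.52).

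The label of ventricle was checked against markers of the chambers. Myl2, with 5.44, 5.46, 5.47 and 5.36, and Irx4 were enriched. Irx4 was not called with the spike-in intercept subtracted, without dye normalization, or with normexp and loess. The atrial and skeletal gene Sln was depleted, a call lost without replicate 2, 3 or 4. The reference holds much skeletal muscle, so the Sln ratio cannot tell how much atrial tissue a sample held. Myl7, the atrial light chain, differed among the hearts, with 3.95 in replicate 1 and 1.99 in replicate 3 against -2.17 and -1.25 in replicates 2 and 4. Myl4, the other atrial light chain, ran the same way, with 0.12, -2.76, -1.5 and -2.84 in replicates 1 to 4, and was depleted without replicate 1 (-2.37). The 12 atrial genes measured had a median of -0.24, which turned to 0.05 with median centring, and 4 of them (Kcnj3, Nppa, Pam and Tbx5) were enriched. Without replicates 1 and 3 together, 1074 features were enriched and 2013 depleted. Kcnj3, Nppa, Pam and Tbx5 were then enriched, and so were 29 of the 36 sarcomere genes. The median of the atrial genes was then -0.88 with 2 depleted, against -0.24 with 1 depleted over all 4 hearts. The part of atrial tissue in single ratios was not tested. The hearts also differed in sex-linked transcripts: Ddx3y and Eif2s3y, of the Y chromosome, were at 2.64 and 2.31 in replicate 4 and at -2.67 or lower in the others, and Xist was at -5.46 in replicate 4 against -0.42 to -0.31. Without replicate 4, Ddx3y (-2.84) and Eif2s3y (-3.87) were depleted.

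**Figure D5:**
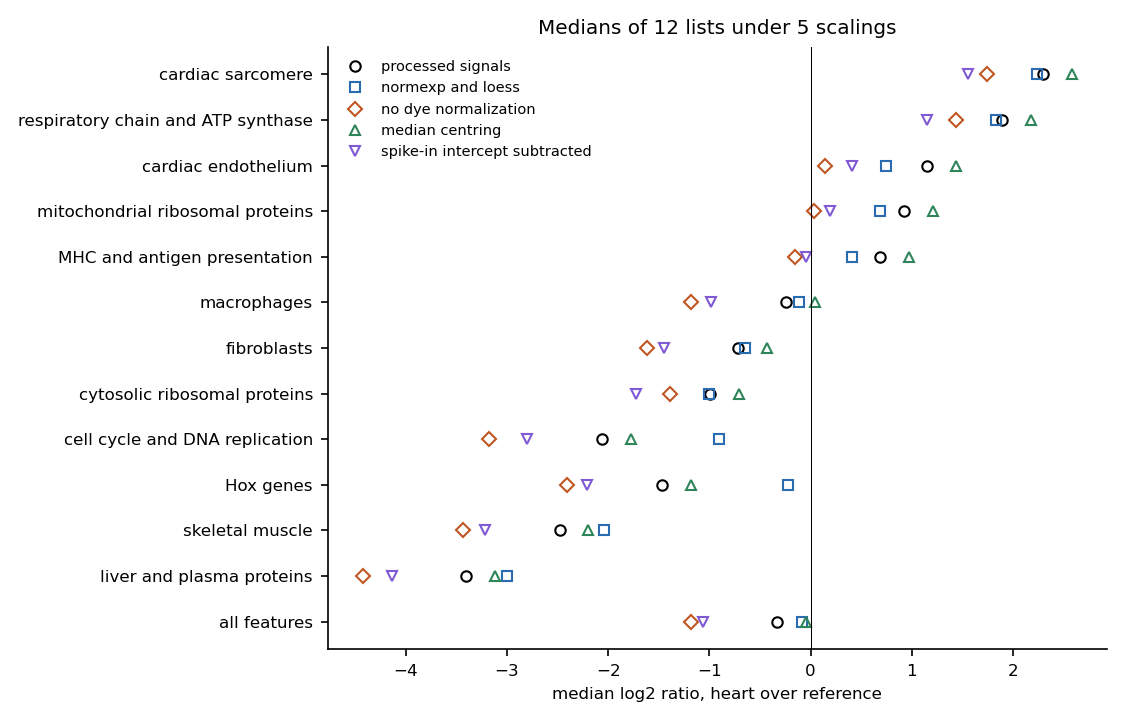
Median log2 ratio (x axis) of 12 gene lists and of all features under 5 scalings of the same 4 arrays (symbols). The respiratory chain median lies between 1.15 and 2.18 and that of liver and plasma proteins between -4.42 and -3.0, while antigen presentation genes and macrophages lie on both sides of 0.

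Calls of single genes moved with the scaling as well. Of the 327 genes named here and in the closing observations, 30 lost their call with the intercept subtracted, 48 without dye normalization and 34 with normexp and loess; Actn2, Per2, Tek, Pfkl and Irx4 lost it in all 3, and Ttn and Ppargc1a in the first and the second. None of these 327 was turned to a call in the opposite direction by these scalings.

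The other 12 arrays carry hearts that did not enter the test, against the same reference and with the same dyes. Of the 1555 features enriched in both channels, 930 had a ratio above 1 on all 12 of them, where 984 of the 9745 features measured in both channels did so. Of the 898 depleted, 571 lay below -1 on all 12, against 594 of the 9745. Pln ranged from 6.59 to 8.14 there, Tnni3 from 5.94 to 6.95, Cox6a1 from -2.00 to -1.34 and Alb from -3.21 to -2.77. Genotype or aortic banding differs on those arrays, and each group of arrays had its own slide. Their parts in a wider range cannot be told apart and were not tested. Nppb ranged from 4.48 to 7.57 and Rpl3l from 1.43 to 3.70.

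Different probes of a gene did not always give the same answer. Of 5434 genes with several probes measured, probes of 17 were called in opposite directions, among them 2310002L09Rik, 2810410L24Rik, Brwd1, Dennd1b, Dst, E2f6, Frmd5, Immp1l, Kidins220, Lnx1, Masp1, Mtf1, Paip1, Stx3, Tpm1 and Tuba3a. For Tpm1, alpha-tropomyosin, whose transcripts are known to be spliced by muscle type, probes lay at 2.51, 2.29 and -1.71. For Dst, of the dystonin cytolinkers, 3 probes lay between 2.16 and 2.24 and a pair at -1.92 and -2.49. Frmd5 had probes at 4.97, 5.68 and -2.17. A single ratio per gene does not describe these 17.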

How the data were processed

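Per the file headers, the Agilent arrays were read on a GenePix scanner and quantified by Agilent's Feature Extraction software. The deposited files hold linear intensities: mean and background signals, and processed signals that the authors' software background-subtracted, detrended and dye-normalized, and the deposited log10 ratio of heart over reference. Ratios here are log2 of the processed signals; outlier-marked spots were left out, saturated ones kept, and spots of a probe averaged. Of 41174 probes, 22951 were named through accession in RefSeq (GRCm38.p6), 6659 through symbol, 3109 through synonym and 8455 kept the file's name. The 4 wild-type sham arrays were fitted with limma 3.58.1 (R 4.3.3) as a mean against 0, with treat at a minimum log2 ratio of 1 and Benjamini-Hochberg adjustment over 16714 features; the procedure was tested on simulated data. Every adjusted p is limma's. SD is over 4 hearts. Features, 13 of whose single values were missing, needed at least 3.

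Heart signals not well above background on any array have a bound: the mean reference signal over the heart's lowest signal that is well above background, or its own where higher, and likewise for the reference. Members and the 46 lists were chosen with earlier results of these data known, and a list is described by its counts and, for most lists, its median, with the shares and medians over all features given once. Genes are named by rule: the 15 largest and 15 smallest called mean ratios with both channels measured and unsaturated, the 15 brightest features of each single-channel class (those without a RefSeq name were passed over, a condition added after the values were seen), up to 8 members of each list in each direction with those that go against it, the pairs of related genes, and genes that are saturated or whose probes disagree. Alternatives changed the background correction, dye normalization, centring, filters, test, probe rule and arrays, and their effect is given at the end. The precision is set by having 4 arrays. The submitters' table of processed values for the whole series was not used here. Some genes that the rule names are not reported here.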

Additional observations from a re-analysis of the deposited data

Results flagged for a closer look

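Of the 327 genes named, each with 4 values, 26 had a heart that stood apart from the other 3, by a gap past Dixon's critical share of the group's range. Chance flags about 1 in 20 such groups. No explanation was tested for any of them. Replicate 1 stood apart for 2210408F21Rik at 5.52 (5.58 to 5.59 in the others), Aadac at -5.38 (-6.07 to -5.96 in the others), Afp at -5.18 (-4.56 to -4.51 in the others) and Camk2d at 2.89 (2.72 to 2.75 in the others). The same held for Cstdc6 at -4.62 (-4.13 to -4.08 in the others), Dlk1 at -3.33 (-3.09 to -3.04 in the others), Fbp1 at -4.61 (-4.25 to -4.21 in the others) and Lor at -3.30 (-2.84 to -2.77 in the others). It did so too for Mb at 4.71 (5.30 to 5.37 in the others), Myl1 at -4.86 (-4.50 to -4.42 in the others) and Tuba8 at 4.42 (3.89 to 3.95 in the others). Replicate 2 stood apart for Trim63 at 3.25 (3.28 to 3.28 in the others). Replicate 3 stood apart for Idh2 at 2.97 (2.80 to 2.82 in the others), Pdk1 at 2.35 (2.48 to 2.50 in the others) and Rgn at -6.27 (-4.68 to -4.45 in the others). In replicate 4 the Y-linked genes Ddx3y and Eif2s3y stood at 2.64 and 2.31, against at most -2.67 and -3.70 in the others, and Xist stood at -5.46, against at least -0.42. Replicate 4 also stood apart for Col2a1 at -2.48 (-3.07 to -3.02 in the others), Col3a1 at -2.21 (-3.25 to -3.13 in the others), Cox7c at 2.65 (2.95 to 2.99 in the others) and Dennd1b at -0.25 (0.20 to 0.26 in the others). The same held for Immp1l at 1.25 (1.40 to 1.41 in the others), Postn at -1.76 (-3.80 to -3.69 in the others), Tnni1 at -3.24 (-2.90 to -2.83 in the others) and Tuba3a at -1.79 (-1.88 to -1.87 in the others).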

How the results depend on the processing

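Against the 1649 enriched and 3082 depleted features, normexp with loess gave 913 and 1029, and no dye normalization gave 433 and 5112. Subtracting the spike-in intercept, chosen after seeing the data, gave 703 and 6095, and requiring both channels above background gave 942 depleted. A minimum fold of 4 gave 430 and 771, a test against 0 gave 4850 and 7485, and leaving out replicates 1 and 3 together gave 1074 and 2013. Leaving out 1 replicate gave 1446 to 1533 enriched and 2753 to 2863 depleted. Both counts stayed within 1.5 times with median centring (2236 and 2238), the deposited ratio column, no filter, outlier-marked spots kept, saturated probes left out, the median over a gene's probes, an intensity trend, all 16 arrays in the fit and every probe as a feature. No feature was called in the opposite direction in any of these, except 1 without the filter and 15 genes with every probe as a feature. Of named genes, 2810410L24Rik (-0.0718), Kidins220 (0.0150) and Tuba3a (0.87) changed sign with the median over probes and were then not called; 31 lost their call without replicates 1 and 3. Apart from the construction of the alternative (fewer arrays, a stricter limit), the cause was not tested. No paired analysis was possible because only 1 group was tested, each heart against the reference on its own array. The heart channel's background limits what can be said of dim features: for 2760 of 4931 features measured in the reference only, no fold can be stated.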

Other observations

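Clock-controlled genes were among those higher in the ventricle. Of 16 circadian genes measured 9 were enriched and 1 depleted (median 1.70): Dbp, a transcription factor that follows the clock, had 3.60, 3.64, 3.56 and 3.59 in the 4 hearts, and Nr1d2, Tef, Nr1d1, Hlf and Per2 averaged 3.31, 2.17, 1.91, 1.88 and 1.72. Arntl, which encodes the activating BMAL1 protein and peaks opposite to Dbp in clock tissues, was measured in the reference only and was at least 3.24-fold lower in heart. Nr1d1 did not pass without replicate 4 (1.85). Per1 was at -0.07 and Cry2 at 0.09. The count was 4 with the spike-in intercept subtracted and 3 without dye normalization. On the other 12 arrays Dbp ranged from 1.66 to 3.88 and Ciart from 0.18 to 6.73. The labels used here give no hour of sampling for either RNA, and its part in these ratios was not tested.

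The ribosomes of mitochondria and cytosol lay on opposite sides of 0. Of 73 mitochondrial ribosomal protein genes 23 were enriched and none depleted (median 0.92), led by Mrpl42 (2.66 ± 0.10) and Mrpl1 (2.02 ± 0.07). Of 76 cytosolic ribosomal protein genes 18 were depleted and none enriched (median -0.99), with Rpl21 at 0.51. Both counts depend on the scaling. With the intercept subtracted 2 mitochondrial genes were enriched and 66 cytosolic genes depleted, and without dye normalization 1 and 36; the medians kept their signs in each. With median centring 38 mitochondrial genes were enriched and 3 cytosolic genes depleted. Of 23 interferon-induced genes 3 were enriched, near the 9.87% of all features: Iigp1 (2.45 ± 0.22), Gbp2 (2.13 ± 0.27) and Ly6e (1.98 ± 0.03), and 1, Rsad2, was depleted, a call lost without replicate 1 (-2.10) or 2 (-2.27); the median of 0.30 turned to -0.79 without dye normalization and to -0.44 with the intercept subtracted.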
